A study of Homo sapiens with 23 samples.

Results

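HEK293T cells sorted as GFP-positive were compared with GFP-negative cells sorted from the same kind of culture 16 h after polyplexes had been added. HEK293T cells derive from human embryonic kidney and express the large T antigen of SV40. The comparison rests on 6 of the 23 arrays of the series: GFP-positive cells at 16 h (n = 3 arrays), labelled transfected, and GFP-negative cells at 16 h (n = 3 arrays), labelled untransfected. They were chosen by their labels and not by any measured value. Polyplexes are particles of plasmid DNA and a cationic polymer, here branched polyethylenimine with the plasmid pEGFP-LUC, from which cells make luciferase and green fluorescent protein (GFP). Cells had been seeded 18 h before the polyplexes were given and were separated by flow cytometry. Both populations had therefore met polyplexes, and no untreated cells of 16 h are among these arrays. GFP-positive cells at 8 h (n = 3), GFP-negative cells at 8 h (n = 3), treated cells at 2 h (n = 3) and untreated cells at 2 h (n = 2) entered the same model, and the 24 h arrays did not. The labels call the arrays biological replicates, but none gives the day or culture of an array, so the p-values measure only the spread between these arrays. The source names of GFP-positive replicates 2 and 3 give no time; their titles give 16 h.

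Each array holds 54675 probe sets, groups of short probes that read a stretch of a transcript, and values are log2 expression. A difference of 1 is a 2-fold change. The number of arrays limits the precision: the median standard error (SE) of a 16 h log2 fold change was 0.11. Of 20034 genes with a symbol, 10795 had 2 or more probe sets, and every probe set was tested on its own, including those that are not the brightest of their gene.

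Polyethylenimine condenses DNA, is taken up by endocytosis and can damage membranes. Cells answer many such insults through the integrated stress response, in which phosphorylation of eIF2α lowers general translation and raises translation of the transcription factor ATF4, and through the heat shock response, in which HSF1 induces chaperones. Plasmid DNA reaches the nucleus more readily when the nuclear envelope opens in mitosis, so the cell cycle of transfected cells is often examined. A cell scored GFP-positive has both taken up and expressed the plasmid, and a GFP-negative cell may have taken it up without expressing it.

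Array medians were 4.96 to 5.08 log2 units in GFP-positive cells and 5.06 to 5.103 in GFP-negative cells. Among the hybridization controls, bacterial transcripts added to each sample in fixed amounts, BioB stood apart by group: its probe sets averaged 5.67 to 6.13 log2 units on the GFP-positive arrays, against 7.91 to 8.31 on the GFP-negative arrays. All 6 BioB probe sets that passed the test were lower in GFP-positive cells, with log2 fold changes of -2.40 to -2.13. BioC averaged 9.33 and 9.26, BioDn 11.36 and 11.14, and CreX 13.07 and 13.10 in GFP-positive and GFP-negative cells. The part of the BioB difference in the results was not tested, and at 8 h BioB averaged 5.25 in GFP-positive cells and 5.09 in GFP-negative cells. The 3′ minus 5′ difference of GAPDH probe sets, a measure of RNA integrity, was 0.150 ± 0.032 in GFP-positive cells and 0.105 ± 0.106 in GFP-negative cells (SD, n = 3 each). Of 20 listed HEK293 markers, 17 lay above the array median on all 6 arrays. Of 19 haematopoietic markers 7 did, and their mean level was 4.64 to 4.83 log2 units in GFP-positive cells and 4.74 to 4.84 in GFP-negative cells. Of 18 stromal markers 7 did, with means of 5.09 to 5.16 in GFP-positive cells and 5.07 to 5.17 in GFP-negative cells.

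Most of the changes of at least 2-fold between the groups were rises in GFP-positive cells. Of 54675 probe sets, 1348 (2.47%) were higher and 1079 (1.97%) lower in GFP-positive cells at a Benjamini-Hochberg adjusted p under 0.05, together 2427 (4.44%). At least 2-fold changes were seen in 189 higher probe sets and 13 lower ones, and 6 of those 13 were the BioB controls. The median log2 fold change was 0.60 among higher probe sets, -0.46 among lower ones and -0.04 over all probe sets. With the 17 arrays quantile-normalized together 67.7% of passing probe sets were higher, and with each array centred on its median 74.4%, against 55.5% on the deposited scale. The count of passing probe sets fell to 1528 without GFP-positive replicate 2 and to 1310 without GFP-positive replicate 3. It fell to 1182 without GFP-negative replicate 2 and to 1410 without GFP-negative replicate 3. Within the 16 h arrays alone it was 684, and 660 of these were among the 2427; with the 24 h arrays added to the fit it was 33. As each array reads RNA pooled from many cells, fewer cells with a transcript and less of it per cell cannot be told apart.

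**Figure D1:**
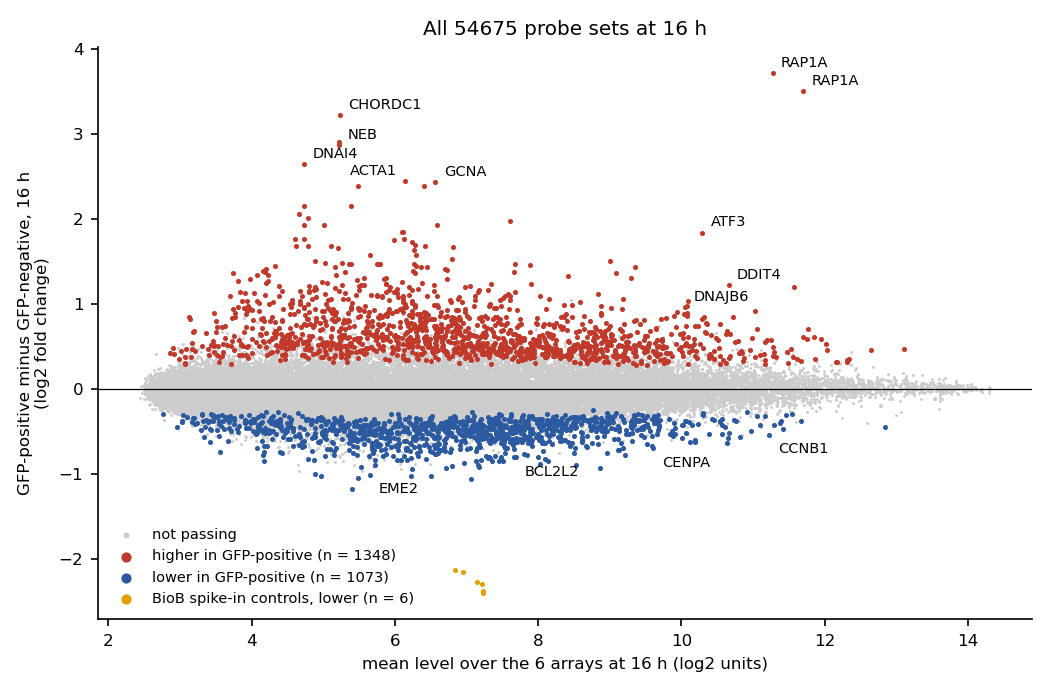
Log2 fold change (GFP-positive minus GFP-negative, 16 h) of every probe set against its mean level over the 6 arrays in log2 units; red and blue points passed as higher and lower, grey points did not pass, and orange points are BioB spike-in controls. The 189 probe sets that were at least 2-fold higher stand well above the grey band, whereas the 1073 lower probe sets other than BioB lie mostly between 0 and -1.

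The differences depended on level. In the dimmest quartile of probe sets, with mean levels of 2.45 to 3.71 log2 units, 0.307% were higher and 0.337% lower. In the brightest quartile, from 7.28 log2 units upwards, 4.03% were higher and 3.31% lower. Changes of at least 2-fold upwards sat in the middle: 56 and 101 such probe sets lay in the second and the third quartile, against 1 in the dimmest and 31 in the brightest. By chromosome, the share of higher probe sets was lowest on chromosome 22 (0.765%, 7 of 915) and highest on chromosome 15 (4.14%), against 2.47% of all. Lower probe sets made up 2.51% and 2.24% there, against 1.97% of all. Both chromosomes were picked as the extremes after the values were seen, and chromosomes were not tested against each other. Protein-coding genes and long noncoding RNA genes had similar shares, with 2.68% and 2.36% of their probe sets higher.

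The 10 genes with the largest rises, RAP1A apart, had levels of 3.36 to 5.43 log2 units on the GFP-negative arrays, near or below the array medians. RAP1A, a small GTPase of the Ras family that acts in cell adhesion, had 12.98, 13.06 and 13.36 log2 units on the GFP-positive arrays and 9.55, 9.96 and 8.73 on the GFP-negative arrays at probe set 1555339_at. The groups lay far apart, and the GFP-negative arrays spread more widely than the GFP-positive ones. The log2 fold change was 3.72 (SE 0.31, adjusted p = 8.26e-06). A further probe set, 1555340_x_at, whose x marks possible cross-hybridization, gave 3.51, but 202362_at gave 0.18 (adjusted p = 0.423) and 228548_at gave -0.37 (adjusted p = 0.101), so probe sets assigned to the gene did not move together.

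NEB, the giant thin-filament protein nebulin of skeletal muscle, had 6.23, 6.80 and 6.94 log2 units in GFP-positive cells and 3.96, 3.77 and 3.63 in GFP-negative cells (log2 fold change 2.87, SE 0.15, adjusted p = 2.06e-08). ACTA1, skeletal muscle α-actin, had 7.18, 7.10 and 7.84 log2 units in GFP-positive cells and 4.91, 4.91 and 4.94 in GFP-negative cells (2.45, SE 0.16, adjusted p = 4.08e-07). For both genes every GFP-positive array was more than 2 log2 units above every GFP-negative array. DNAI4, an intermediate chain of axonemal dynein, rose by a log2 fold change of 2.65 (SE 0.22) and GCNA, a germ-cell nuclear protein, by 2.44 (SE 0.25). SCG5, the secretory chaperone 7B2, had 4.99, 5.75 and 6.69 log2 units in GFP-positive cells and 3.63, 3.49 and 3.85 in GFP-negative cells. TPH1, which makes the serotonin precursor outside the brain, had 5.48, 5.75 and 5.87 in GFP-positive cells and 3.97, 3.42 and 3.52 in GFP-negative cells. The log2 fold changes were 2.15 (SE 0.31) for SCG5 and 2.06 (SE 0.14) for TPH1. Groups without overlap were a condition for naming the 10 largest rises, so the lack of overlap is no further support. The other genes among the 10 with the largest rises were CHORDC1 (3.23) and PGAP1 (2.40), each at a probe set that is not the brightest of its gene, and CFAP43 (2.02). Without a symbol, the probe sets 221200_at and 1565830_at rose by 2.91 and 2.39.

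Declines were smaller. EME2, a partner of the MUS81 nuclease in replication fork repair, had 5.26, 4.92 and 5.27 log2 units in GFP-positive cells and 5.99, 6.001 and 6.48 in GFP-negative cells (log2 fold change -1.004, SE 0.18, adjusted p = 0.00397). SHQ1, an assembly factor of H/ACA ribonucleoproteins, had 8.47, 8.41 and 8.33 in GFP-positive cells and 9.39, 9.28 and 9.32 in GFP-negative cells at 63009_at (-0.92, SE 0.08, adjusted p = 8.26e-06). The genes with the largest declines were also chosen for groups without overlap. For SHQ1 the replicates of each group lay within 0.2 log2 units. Of the 10 genes with the largest declines, 6 passed at a probe set that is not the brightest of the gene. Among all probe sets with a symbol, 52.0% are not the brightest of their gene. SHQ1 gave -0.04 (adjusted p = 0.831) at its brightest. GIGYF2, a translational repressor, had -0.998 (SE 0.22) at 1558305_at and -0.05 (adjusted p = 0.784) at its brightest. GOSR2, a Golgi SNARE, passed in both directions: 243880_at gave -0.93 (SE 0.16) and 239159_at -0.52, while 213206_at gave 0.47 (SE 0.12, adjusted p = 0.0294) and the brightest -0.10 (adjusted p = 0.666). SLC33A2, LOC100190986, RABL6, SF3A2, SCRN2 and PCED1A had log2 fold changes between -0.93 and -0.88, each at 1 probe set. At the brightest probe set RABL6 gave 0.0002 (adjusted p = 0.999) and LOC100190986 -0.64 (adjusted p = 0.0813). The other probe sets of SLC33A2 (-0.13), SCRN2 (-0.09) and PCED1A (0.18) did not pass. The largest declines without a symbol were 242715_at (-1.17) and 242343_x_at (-1.06).

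**Figure D2:**
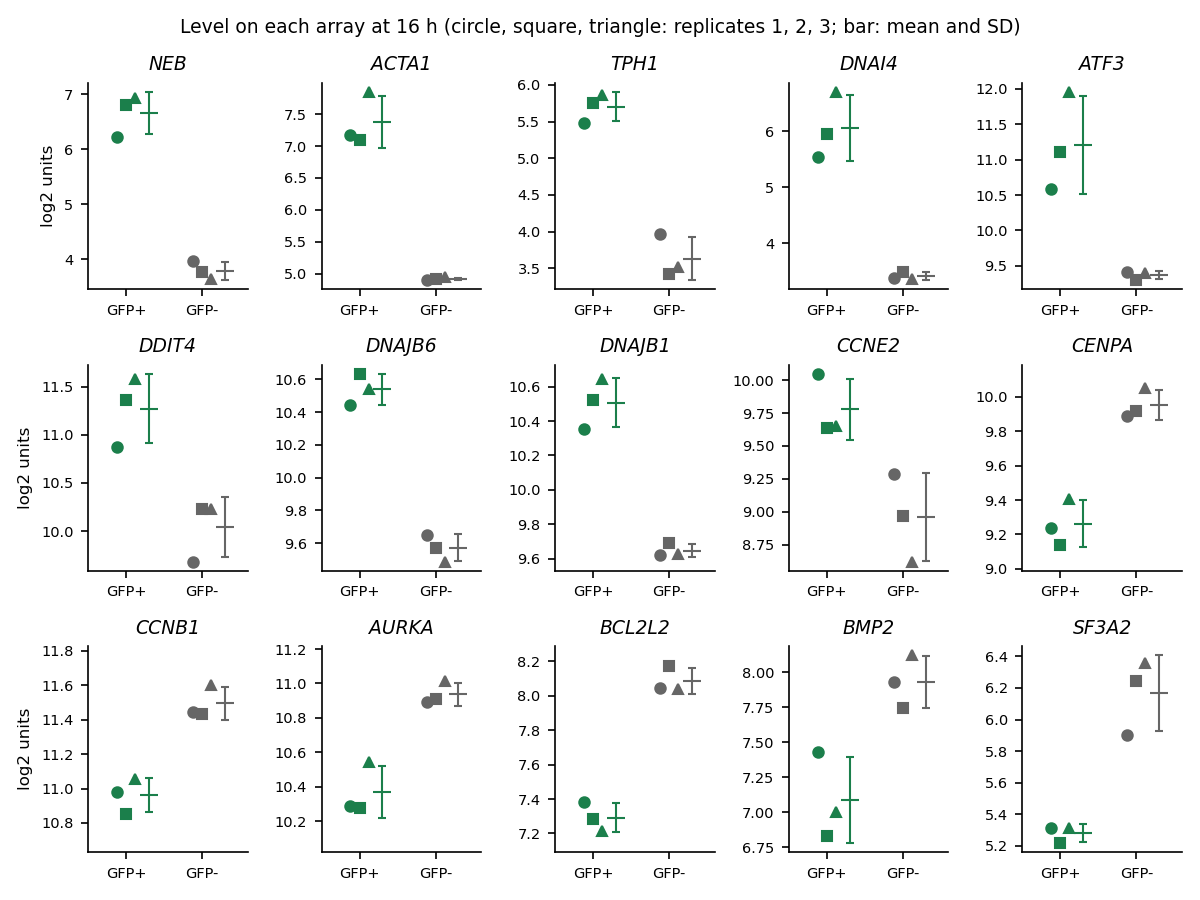
Level in log2 units on each 16 h array of 15 genes, GFP-positive at left and GFP-negative at right; symbols are replicates and bars are mean and SD (n = 3). In every panel the groups do not overlap, from NEB (mean 6.66 in GFP-positive and 3.79 in GFP-negative cells) to SF3A2 (5.28 in GFP-positive and 6.17 in GFP-negative cells). NEB, ACTA1, TPH1, DNAI4 and SF3A2 are among the genes named for the largest changes without overlap.

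Part of the integrated stress response list rose. Of 68 probe sets for 37 listed genes, 12 (9 genes; 17.6% of the probe sets) were higher, against 2.47% of all probe sets, and 0 were lower (25 higher and 0 lower at an unadjusted p under 0.05 in limma); the list median was 0.14, against -0.04 over all probe sets. ATF3, a stress-induced transcription factor, had 10.58, 11.10 and 11.95 log2 units in GFP-positive cells and 9.41, 9.30 and 9.40 in GFP-negative cells at its brightest probe set. The GFP-negative arrays were nearly equal and the GFP-positive arrays spread over more than 1 log2 unit, all above them (log2 fold change 1.84, SE 0.24, adjusted p = 0.000428). DDIT4, an inhibitor of mTORC1 also called REDD1, had 10.87, 11.36 and 11.58 in GFP-positive cells and 9.69, 10.23 and 10.23 in GFP-negative cells (1.23, SE 0.18). DDIT3, the factor CHOP, had 8.12, 8.48 and 9.46 in GFP-positive cells and 7.40, 7.62 and 7.84 in GFP-negative cells (1.06, SE 0.23, adjusted p = 0.0151). Neither gene's groups overlapped. SLC3A2, the heavy chain of amino acid transporters, rose by 0.73 (SE 0.12) and PPP1R15A, the GADD34 subunit that returns eIF2α to its unphosphorylated state, by 0.67 (SE 0.11). The PPP1R15A value is from a probe set that is not the brightest of the gene. CTH, CEBPG, CEBPB and SESN2 also passed as higher. Within the 16 h arrays alone, 6 probe sets of the list did.

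ATF4 and C/EBP factors bind CARE sites. The promoter of ATF3, from 250 bases before to 50 after the gene start, is shown because it carried such letters (TGATGNAA, either strand, in capitals) and belongs to the list member with the smallest p among those that did. It spans chr1:212565157-212565456 on the + strand (RefSeq, GRCh38.p14).
ATF3: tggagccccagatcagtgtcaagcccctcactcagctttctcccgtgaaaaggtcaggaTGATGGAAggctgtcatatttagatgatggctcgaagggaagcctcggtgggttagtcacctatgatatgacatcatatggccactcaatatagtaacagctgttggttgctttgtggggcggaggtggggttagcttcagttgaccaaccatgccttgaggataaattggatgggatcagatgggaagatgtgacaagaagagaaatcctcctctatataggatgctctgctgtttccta
The match began 191 bases before the gene start used for this window, and no window at another start of the gene is shown. These letters were in 7 of 31 promoters of the list (22.6%) and in 3.67% of all 27305 promoters of the table. Of the 9 genes that rose, ATF3 and SLC3A2 had a match. A match in a window of this kind describes the sequence and does not show binding.

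The unfolded protein response, which answers misfolding in the endoplasmic reticulum, gave few calls: of 66 probe sets, 0 were higher and 1 (1.52%) was lower (7 higher and 2 lower at an unadjusted p under 0.05 in limma), where 2.47% of all probe sets were higher and 1.97% lower. The list median was 0.07, and no test of the difference from the ATF4 list was made. The lower probe set was of ERN1, the sensor kinase IRE1α (log2 fold change -0.46, SE 0.12).

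Heat shock genes rose in part. Of 68 probe sets for 31 genes, 10 (9 genes, 14.7%) were higher, against 2.47% of all probe sets, and 0 were lower. At an unadjusted p under 0.05 in limma 16 were higher and 2 lower, and the list median was 0.10. DNAJB6, a J-domain co-chaperone that restrains aggregation, had 10.44, 10.63 and 10.54 log2 units in GFP-positive cells and 9.65, 9.57 and 9.49 in GFP-negative cells (log2 fold change 0.97, SE 0.09, adjusted p = 1.24e-05). DNAJB1, the HSP40 partner of HSP70, had 10.36, 10.52 and 10.64 in GFP-positive cells and 9.62, 9.69 and 9.63 in GFP-negative cells (0.86, SE 0.12), and its other passing probe set gave 0.95. HSPA1A, stress-inducible HSP70, had 6.36, 6.05 and 6.54 in GFP-positive cells and 5.52, 5.20 and 5.56 in GFP-negative cells (0.89, SE 0.17). The groups of all 3 genes did not overlap. HSPA1A shares near-identical sequence with HSPA1B, so its signal may come from either. HSPA6, a strictly inducible HSP70 of human cells, rose by 1.14 (SE 0.25) at 213418_at, while 117_at gave 0.30 (adjusted p = 0.282). BAG3, HSPH1, DNAJB4 and BAG1, all HSP70 partners, rose by 0.37 to 0.60. The count was 5 without GFP-positive replicate 3, and 6 without GFP-positive replicate 2, GFP-negative replicate 2 or GFP-negative replicate 3, and 6 within the 16 h arrays alone.

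CHORDC1, an HSP90 co-chaperone also called morgana, gave the largest rise in the list. Its probe set 239436_at had 6.47, 6.73 and 7.32 log2 units in GFP-positive cells and 3.78, 3.53 and 3.54 in GFP-negative cells (log2 fold change 3.23, SE 0.15, adjusted p = 4.39e-09). The brightest probe set of the gene, 218566_s_at, had 10.90, 10.71 and 10.72 in GFP-positive cells and 10.97, 10.59 and 10.53 in GFP-negative cells (0.08, adjusted p = 0.819). Thus the groups were widely separated at the dim probe set and overlapped at the bright one. The promoter of CHORDC1 (chr11:90223000-90223299, - strand, RefSeq, GRCh38.p14) is shown because it held heat shock element letters (GAANNTTC, in capitals), the inverted repeat bound by HSF1, at 3 places.
CHORDC1: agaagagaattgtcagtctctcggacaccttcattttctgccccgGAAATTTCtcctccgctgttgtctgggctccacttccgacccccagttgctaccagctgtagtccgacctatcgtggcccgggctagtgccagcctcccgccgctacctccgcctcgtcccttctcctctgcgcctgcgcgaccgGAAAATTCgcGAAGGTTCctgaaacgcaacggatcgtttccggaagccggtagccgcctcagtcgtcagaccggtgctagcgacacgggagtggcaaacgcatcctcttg
These letters read the same on both strands and were in 11 of 27 promoters of the list (40.7%) and in 6.87% of all 27305 promoters. Of the 9 genes with a higher probe set, CHORDC1, DNAJB6, HSPA1A and HSPA6 had a match, and CHORDC1 was not higher at its brightest probe set.

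The cell cycle genes that passed were lower in the list of G2 and mitosis and higher in that of G1/S, and most members of either list did not pass. Of 82 probe sets for 45 genes of G2 and mitosis, 18 (13 genes; 22.0%) were lower, against 1.97% of all probe sets, and 0 were higher (34 lower and 1 higher at an unadjusted p under 0.05 in limma); the list median was -0.20. Of 83 probe sets for 42 genes of the G1/S transition and DNA replication, 18 (14 genes; 21.7%) were higher, against 2.47% of all probe sets, and 0 lower (30 and 2 at an unadjusted p under 0.05 in limma), with a median of 0.15. The difference between the lists was not tested. These arrays hold no count of cells by phase.

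Among mitotic genes, CENPA, the histone H3 variant of centromeres, had 9.24, 9.14 and 9.41 log2 units in GFP-positive cells and 9.89, 9.92 and 10.05 in GFP-negative cells (log2 fold change -0.69, SE 0.08, adjusted p = 0.000221). CCNB1, cyclin B1, which drives entry into mitosis with CDK1, had 10.98, 10.85 and 11.05 in GFP-positive cells and 11.45, 11.44 and 11.60 in GFP-negative cells (-0.53, SE 0.09) and -0.67 at its other probe set. AURKA, the Aurora A kinase of spindle poles, had 10.29, 10.28 and 10.54 in GFP-positive cells and 10.89, 10.91 and 11.02 in GFP-negative cells (-0.57, SE 0.09). All GFP-positive arrays were below all GFP-negative arrays for the 3 genes. KNSTRN, a kinetochore and spindle protein, and CDCA3, a trigger of mitotic entry, fell by 0.71 and 0.59 on the log2 scale, CDCA3 at a probe set that is not its brightest. AURKB, KIF20A, PSRC1, CENPF, TPX2, UBE2C and NEK2 passed as lower, with log2 fold changes of -0.66 to -0.37. BUB1, a spindle checkpoint kinase, passed as lower in 2 of 5 probe sets (-0.82 and -0.40). MKI67, the Ki-67 antigen that coats mitotic chromosomes, passed as lower at 212023_s_at (-0.83, SE 0.12) and 212020_s_at (-0.69, SE 0.14), while its brighter probe sets gave 0.22 (adjusted p = 0.442) and -0.04 (adjusted p = 0.914). Within the 16 h arrays alone, 10 probe sets of the list passed as lower.

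On the G1/S side, ORC1, the largest subunit of the origin recognition complex, had 8.68, 8.69 and 9.06 log2 units in GFP-positive cells and 8.04, 8.02 and 7.96 in GFP-negative cells (log2 fold change 0.81, SE 0.10, adjusted p = 0.000319). CCNE2, cyclin E2, had 10.05, 9.64 and 9.65 in GFP-positive cells and 9.29, 8.97 and 8.62 in GFP-negative cells (0.82, SE 0.16), but its other probe set gave 0.37 (adjusted p = 0.453). E2F8 and E2F7, atypical E2F repressors that are themselves induced at G1/S, rose by 0.86 (SE 0.15) and 0.55 (SE 0.10). The groups did not overlap for any of these probe sets that passed. TYMS, thymidylate synthase, rose by 0.81 (SE 0.11) at 217684_at, which is not the brightest probe set of the gene. MCM10 rose in 3 probe sets by 0.42 to 0.58, and CDT1, TK1, CDC25A, RFC2, FEN1, E2F2, UHRF1 and PCNA rose by 0.32 to 0.69. CCNE1, cyclin E1, gave 0.20 (adjusted p = 0.397) and 0.12 (adjusted p = 0.621). The count was 11 without GFP-positive replicate 2 and 5 within the 16 h arrays alone.

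Promoters of both lists were searched for the letters of their best-known regulators. The cell cycle homology region (CHR, TTTGAA), bound by the DREAM complex and MuvB with B-MYB at mitotic genes, was in 25 of 39 promoters of the G2 and mitosis list (64.1%) and in 15.4% of all 27305 promoters. Of 10 lower genes with a promoter in the table, CDCA3, CENPA and CENPF had it. E2F letters (TTTNNCGC) were in 18 of 35 promoters of the G1/S list (51.4%) and in 6.90% of all promoters, and 6 of 12 higher genes with a promoter had them (CDC25A, CDT1, E2F2, PCNA, TYMS and UHRF1). Both motifs were searched on both strands, and the promoters of CENPA (chr2:26785806-26786105, + strand) and TYMS (chr18:657403-657702, + strand; RefSeq, GRCh38.p14) are shown with the matches in capitals, 18 and 39 bases before the gene start.
CENPA: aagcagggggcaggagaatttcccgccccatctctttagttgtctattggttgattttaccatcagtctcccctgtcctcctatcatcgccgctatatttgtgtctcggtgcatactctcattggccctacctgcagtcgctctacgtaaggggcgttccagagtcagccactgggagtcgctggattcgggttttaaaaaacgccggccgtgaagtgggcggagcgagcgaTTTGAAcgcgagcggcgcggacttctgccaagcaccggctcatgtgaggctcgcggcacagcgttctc
TYMS: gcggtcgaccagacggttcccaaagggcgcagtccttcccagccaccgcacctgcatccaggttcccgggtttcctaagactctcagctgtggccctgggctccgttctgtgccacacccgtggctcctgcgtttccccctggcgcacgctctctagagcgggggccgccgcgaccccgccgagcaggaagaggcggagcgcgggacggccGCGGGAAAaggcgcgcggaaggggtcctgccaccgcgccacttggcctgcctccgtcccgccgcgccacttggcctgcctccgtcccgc

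Histone and p53 target genes rose in part. Of 42 histone probe sets, 7 (6 genes, 16.7%) were higher, against 2.47% of all probe sets, and 0 were lower. At an unadjusted p under 0.05 in limma 13 were higher and 0 lower. H3C10 rose by a log2 fold change of 1.17 (SE 0.15) and H2BC5 by 1.33 (SE 0.25); H2BC5 had 8.85, 8.43 and 9.97 log2 units in GFP-positive cells and 7.74, 7.76 and 7.75 in GFP-negative cells. H3-3B, which encodes the replication-independent histone H3.3, rose by 0.76 (SE 0.11). Histone genes are near copies of each other, so the members cannot be told apart with certainty. Without GFP-positive replicate 3, GFP-negative replicate 1 or GFP-negative replicate 2, 4 histone probe sets passed, and 2 did within the 16 h arrays alone. Of 56 p53 target probe sets (median 0.20), 19 were higher and 0 lower at an unadjusted p under 0.05 in limma. After adjustment 9 (8 genes, 16.1%) were higher, against 2.47% of all probe sets, and 0 were lower. They include GADD45A (0.74, SE 0.15), a growth-arrest protein, PPM1D (0.74, SE 0.16), the phosphatase WIP1, DDB2 (0.74, SE 0.17), a DNA damage sensor, and PMAIP1 (0.42, SE 0.11, not at its brightest probe set), the pro-apoptotic NOXA. SESN2, counted above in the ATF4 list, was also among them, so the ATF4 and p53 counts are not separate. The large T antigen of HEK293T binds p53. The p53 count was 2 without GFP-positive replicate 3, 4 without GFP-positive replicate 2, 5 without GFP-negative replicate 1 or 3, and 1 within the 16 h arrays alone. Of 63 probe sets of the BCL2 family, which sets the threshold of mitochondrial apoptosis, 1 (1.59%, PMAIP1) was higher and 2 (3.17%) were lower, shares near the 2.47% and 1.97% of all probe sets, and the list median was -0.01. The anti-apoptotic BCL2L2 (BCL-W) had 7.38, 7.28 and 7.21 log2 units in GFP-positive cells and 8.05, 8.17 and 8.04 in GFP-negative cells at its brightest probe set (-0.80, SE 0.10, adjusted p = 0.000309), without overlap, while 1555140_a_at overlapped between the groups (-0.41, adjusted p = 0.112). BCL2, also anti-apoptotic, was lower at 203685_at (-0.61, SE 0.12), and its brightest probe set gave -0.13 (adjusted p = 0.692).

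**Figure D3:**
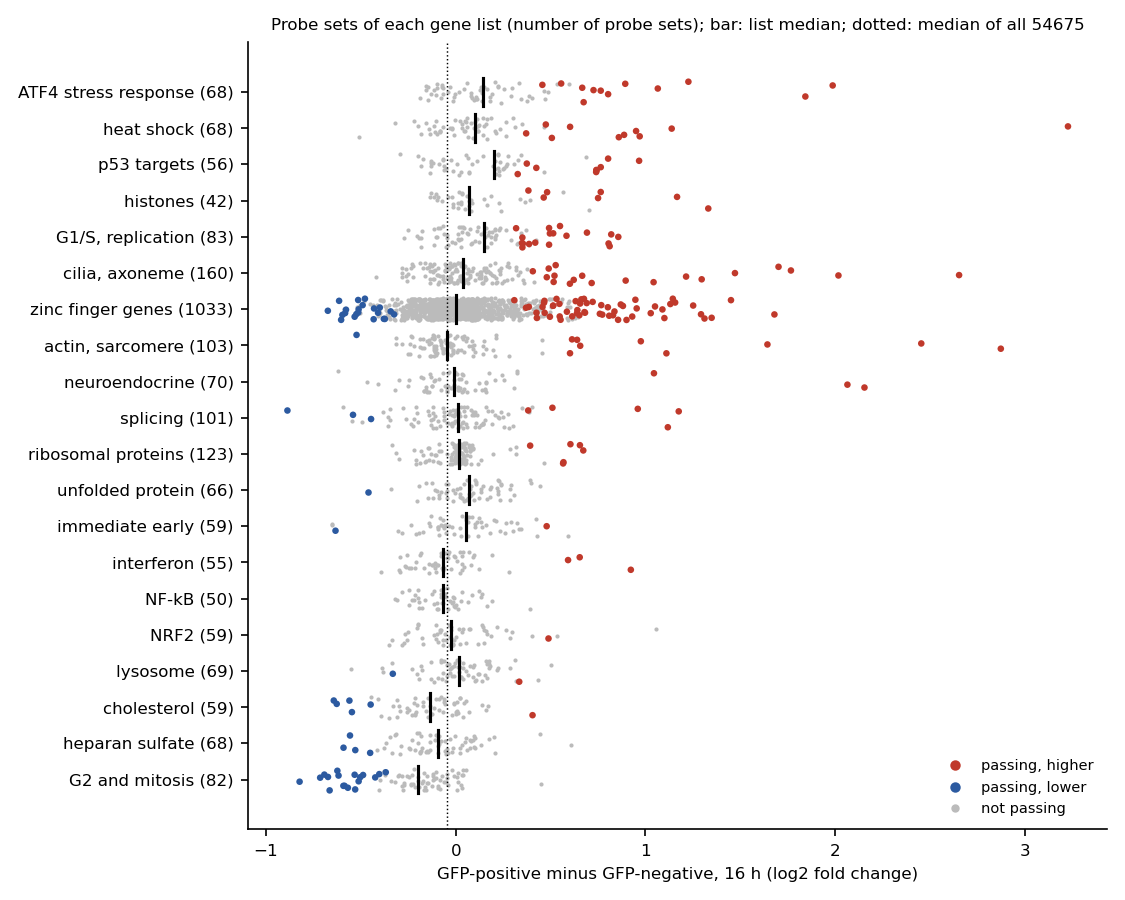
Log2 fold change (GFP-positive minus GFP-negative, 16 h) of every probe set in 20 gene lists, with the number of probe sets in brackets; red and blue points passed, black bars are list medians and the dotted line is the median of all probe sets. The G2 and mitosis list (median -0.20) lies to the left, and the p53 (0.20), G1/S (0.15) and ATF4 (0.14) lists to the right of the dotted line at -0.04.

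Some genes known from motile cilia, muscle and neuroendocrine cells were among the strongest rises. The lists of such genes were chosen with earlier results of these data known. They hold NEB, ACTA1, DNAI4, CFAP43, SCG5 and TPH1, named above for the largest rises, so their shares are no independent support. Over all probe sets 2.47% were higher and 1.97% lower. Of 160 probe sets for 67 cilia and axoneme genes, 19 (12 genes, 11.9%) were higher and 0 lower. At an unadjusted p under 0.05 in limma 38 were higher and 7 lower, while the list median was 0.04. LRRC23, a radial spoke protein, had 6.92, 7.16 and 7.32 log2 units in GFP-positive cells and 5.48, 5.46 and 5.36 in GFP-negative cells (log2 fold change 1.70, SE 0.11, adjusted p = 5.78e-07). At this probe set, its brightest, the groups lay more than 1 log2 unit apart on every array, while 206076_at gave 0.23 (adjusted p = 0.369; adjusted p of the pair = 2.14e-05). CFAP70 rose by 1.47 (SE 0.16) and 0.67 (SE 0.12) at 2 probe sets and gave 0.14 (adjusted p = 0.567) at 215849_x_at, and RFX3, a transcription factor of ciliary genes, rose by 0.53 at its brightest. Within the 16 h arrays alone, 9 probe sets of the cilia list passed. Of 103 probe sets for actins and sarcomere proteins, 9 (6 genes, 8.74%) were higher and 1 (0.971%) lower, and the list median was -0.05. MYH3, embryonic skeletal myosin, had 6.93, 6.81 and 7.52 log2 units in GFP-positive cells and 5.50, 5.18 and 5.66 in GFP-negative cells (1.64, SE 0.19). ACTN2, sarcomeric α-actinin, rose in 4 probe sets by 0.61 to 1.11. ACTA2 and TAGLN, smooth muscle genes that are also on the stromal list, rose by 0.60 and 0.66, and TTN, titin, fell by 0.52 on the log2 scale. Of 70 probe sets of neuroendocrine secretory genes, 3 (4.29%) were higher and 0 lower (6 and 4 at an unadjusted p under 0.05 in limma), and the list median was -0.01. The higher ones were SCG5, TPH1 and GPR83, an orphan receptor of brain (1.04, SE 0.18). ITGAM, integrin αM of myeloid cells, was the haematopoietic marker that passed; it had 3.87, 4.59 and 6.15 log2 units in GFP-positive cells and 3.51, 3.56 and 3.41 in GFP-negative cells, with the rise resting largely on GFP-positive replicate 3.

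Zinc finger genes, many of them transcriptional repressors of the KRAB family, were listed by symbol. Of 1033 probe sets for 521 genes, 56 (51 genes; 5.42%) were higher, against 2.47% of all probe sets, and 21 (18 genes; 2.03%) lower, near the 1.97% of all probe sets. The median was 0.00. ZFP2 rose by a log2 fold change of 1.35 (SE 0.15), ZNF596 by 1.45 (SE 0.18) and ZNF79 by 1.09 (SE 0.12). ZNF346 rose by 1.31 (SE 0.15) at 232753_at, whereas its brightest probe set gave -0.38 and passed as lower. The number higher varied with the arrays kept: it was 23 without GFP-negative replicate 2 and 29 without GFP-positive replicate 3, and 17 within the 16 h arrays alone.

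The innate immune lists gave few calls, to be read against the 2.47% of all probe sets that were higher and the 1.97% that were lower. Of 50 NF-kB and inflammatory probe sets, 0 passed (1 higher and 6 lower at an unadjusted p under 0.05 in limma). CXCL8, interleukin 8, gave -0.11 (adjusted p = 0.609) and -0.07 (adjusted p = 0.845). Of 55 interferon-stimulated probe sets, 3 (5.45%) were higher and 0 lower (3 and 3 at an unadjusted p under 0.05 in limma): ISG20, an RNA exonuclease, at both its probe sets (0.92 and 0.59), and IFI27 (0.65). IFIT1, an RNA-binding effector induced by interferon, had a log2 fold change of -0.39 (adjusted p = 0.296). Of 62 probe sets of cytosolic nucleic acid sensors, 2 (3.23%) were lower and 0 higher (6 and 2 at an unadjusted p under 0.05 in limma): MAVS, the mitochondrial adaptor of RNA sensing (-0.41, SE 0.10), and LRRFIP1 (-0.51, SE 0.13). Without GFP-positive replicate 3 no interferon-stimulated probe set passed, and without GFP-positive replicate 2 or GFP-negative replicate 3 no sensor probe set did. Immediate early genes gave NR4A2, a nuclear receptor, as higher (0.48, SE 0.11) and MYC as lower (-0.63, SE 0.15). FOS (0.32), JUN (0.07 to 0.21) and EGR1 (-0.65 to -0.31) did not pass, and the SE of FOS and EGR1 was 0.42 to 0.55.

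In the fit of 17 arrays, lists of cholesterol synthesis and heparan sulfate held more lower probe sets than the 1.97% over all. Those of endocytosis and lysosomes did not. Of 59 cholesterol synthesis probe sets, 5 (8.47%) were lower and 1 (1.69%) higher (17 and 1 at an unadjusted p under 0.05 in limma): the lower ones include INSIG1 (-0.64 and -0.56) and SQLE (-0.63 and -0.55), and the higher one was LSS (0.40, SE 0.11). INSIG1, which holds SREBP in the endoplasmic reticulum, had 8.87, 9.53 and 9.20 log2 units in GFP-positive cells and 9.64, 10.12 and 9.77 in GFP-negative cells. Of 68 heparan sulfate probe sets, 4 (5.88%) were lower and 0 higher (12 and 2 at an unadjusted p under 0.05 in limma). Heparan sulfate is the anionic cell-surface glycan to which polyplexes bind. The 4 were SULF1, a sulfatase (-0.53, SE 0.11), the N-sulfotransferases NDST1 (-0.56, with -0.09 at its brightest probe set, adjusted p = 0.764) and NDST2 (-0.59), and B4GALT7 (-0.45), which builds the linker to the protein core. Of 97 endocytosis probe sets, SNX1 alone passed (-0.33; 1.03%), and of 69 lysosome and autophagy probe sets LGMN was higher (0.33) and CTSA lower (-0.33; 1.45% each). The counts of lower probe sets fell when an array was left out, to 0 for cholesterol genes without GFP-negative replicate 2 and to 1 for heparan sulfate genes without GFP-positive replicate 2 or GFP-negative replicate 3. Within the 16 h arrays alone both lists had 0 lower probe sets. With each array centred on its median the cholesterol list had 2 and the heparan sulfate list 3.

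Signalling and RNA processing lists gave calls in both directions, where 2.47% of all probe sets were higher and 1.97% lower. In the BMP and Notch list 3 of 116 probe sets (2.59%) were higher and 4 (3.45%) lower, shares near those of all probe sets. ID4 (log2 fold change 1.06, SE 0.15, with 0.33 at its brightest probe set, adjusted p = 0.0532) and ID3 (0.61, SE 0.11), inhibitors of DNA binding that BMP signals induce, and HEY2 rose. BMP2, a BMP ligand, had 7.43, 6.83 and 7.002 log2 units in GFP-positive cells and 7.93, 7.74 and 8.12 in GFP-negative cells (-0.84, SE 0.17), and MIB2 (-0.85, SE 0.17), HES4 and HES6 were also lower. In the Ras and Rap list 4 of 113 probe sets (3.54%) were higher and 4 (3.54%) lower, with SOS1, a Ras exchange factor, at -0.75 (SE 0.10). In the splicing list 5 of 101 probe sets (4.95%) were higher and 3 (2.97%) lower. CLK4, a kinase of SR proteins, had 9.41, 9.34 and 9.75 log2 units in GFP-positive cells and 8.67, 8.48 and 8.48 in GFP-negative cells (0.96, SE 0.11, adjusted p = 0.000203), without overlap. SF3A2, a subunit of the U2 particle, passed as lower at 37462_i_at (-0.89, SE 0.23) and gave -0.55 (adjusted p = 0.114) at 209381_x_at. SRSF5 rose by 1.18 (SE 0.20) and TRA2B by 0.38 (SE 0.08), each at a probe set that is not the brightest. With 1 of the 16 h arrays left out, lower counts were 0 to 1 in the splicing list, 2 to 5 in the BMP and Notch list and 1 to 4 in the Ras and Rap list.

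Metabolic and ribosomal lists had shares on either side of those of all probe sets, which were 2.47% higher and 1.97% lower. Of 123 ribosomal protein probe sets 6 (4.88%) were higher and 0 lower (10 and 2 at an unadjusted p under 0.05 in limma). The higher ones were of RPS28 (0.67 and 0.57), RPS21 (0.65), RPL15 (0.60), RPL37 (0.57) and RPL23 (0.39), all other than the brightest of the gene. Of 69 hypoxia and glycolysis probe sets, 2 (2.9%) were higher, P4HA1 (0.47) and KDM3A (0.48), and 4 lower (5.80%), among them HK2 (-0.42) and NDRG1 (-0.35). The list had 0 lower probe sets without GFP-positive replicate 2, GFP-positive replicate 3 or GFP-negative replicate 2 and within the 16 h arrays alone, and 1 without GFP-negative replicate 3. Of 89 oxidative phosphorylation probe sets 1 (1.12%) was higher, UQCRC2 (0.85), and 1 (1.12%) lower, CYCS, cytochrome c (-0.46). Of 59 NRF2 probe sets 1 (1.69%) was higher, that of ABCC2, an efflux pump (0.48). Of 18 metallothionein probe sets 0 passed (1 higher at an unadjusted p under 0.05 in limma). In the HEK293 marker list NEFL (-0.37) and ENO2 (-0.42), neuronal genes that this line expresses, were lower at 1 probe set each. The NEFL value is from a probe set that is not the brightest of the gene. A brighter NEFL probe set had the opposite sign and did not pass (0.34, adjusted p = 0.101).

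Some probe sets differed from the brightest of their gene. The difference was tested for 21683 pairs, and 797 (3.68%) passed, from 647 of 10795 genes, 352 with the dimmer probe set above and 445 with it below the brightest. Of 948 genes with a higher probe set, 614 were higher by their brightest probe set and 334 only by another, and of 746 genes with a lower one, 418 and 328. Of the 132 probe sets with a symbol that were at least 2-fold higher, 65 were not the brightest of their gene. This held for 52.0% of all probe sets with a symbol, and for 44.5% of the higher and 51.1% of the lower ones. In 35 genes probe sets passed in both directions. These counts set passing against not passing and are no test of a difference. In 40 passing pairs the dimmer probe set was at least 2-fold higher while the brightest stayed within 0.5 log2 units of no change. Without GFP-negative replicate 2 the number of passing pairs was 354, without GFP-positive replicate 3 it was 355, and without GFP-positive replicate 2 it was 446. It was 503 without GFP-negative replicate 3, 524 without GFP-negative replicate 1 and 315 within the 16 h arrays alone.

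PGAP1, a lipid remodelling enzyme of GPI anchors, had 7.21, 7.47 and 8.13 log2 units in GFP-positive cells and 5.33, 5.12 and 5.18 in GFP-negative cells at 244321_at, and 6.97, 7.32 and 7.62 in GFP-positive cells and 7.37, 7.23 and 7.76 in GFP-negative cells at its brightest. The pair differed by 2.55 in log2 fold change (adjusted p = 1.85e-06). MTHFD2L, a mitochondrial folate enzyme, had 6.94, 7.17 and 7.67 in GFP-positive cells and 5.83, 5.51 and 5.38 in GFP-negative cells at 220346_at (1.69, SE 0.18), while its brightest gave -0.47 (adjusted p = 0.122). For both genes the rise was seen at 1 probe set that is not the brightest, and PGAP1 also passed as lower at 239725_at (-0.43, SE 0.10, adjusted p = 0.0201). For NEB, DNAI4, TPH1 and CFAP43 the brightest probe set rose and another stayed near no change: NEB gave 2.87 and 0.19, TPH1 2.06 and 0.04. DNAI4 passed in 4 of 5 probe sets, and 130 genes had 2 or more higher probe sets and none lower, among them ATF3 (1.99 and 1.84) and RBM26-AS1 (1.93 and 0.66). For 91 genes 2 or more probe sets were lower and none higher, as for FAHD2A (-0.85 and -0.35), EME2 (-1.004 and -0.63), BUB1 and MKI67.

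**Figure D4:**
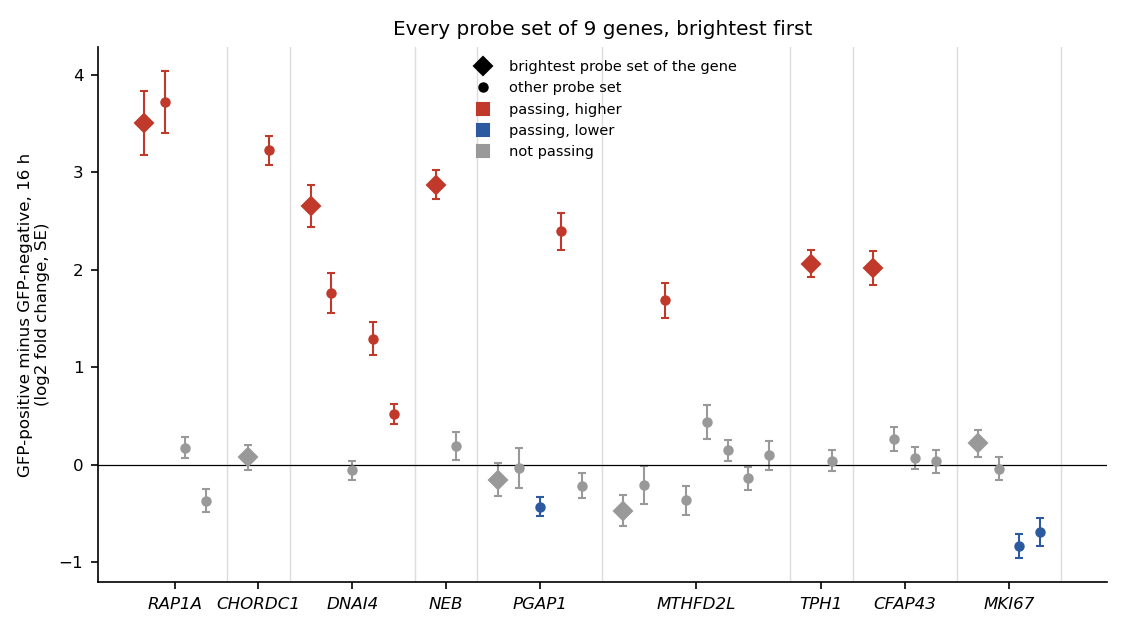
Log2 fold change with SE (GFP-positive minus GFP-negative, 16 h) of every probe set of 9 genes, ordered from the brightest (diamond) to the dimmest within a gene; red and blue passed as higher and lower. For CHORDC1, PGAP1 and MTHFD2L the diamond lies near or below 0 while another probe set stands at 3.23, 2.40 and 1.69.

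The 16 h changes were set beside those of the 8 h arrays, which share no array with them. Of the 1348 probe sets higher at 16 h, 1298 (96.3%) had a log2 fold change above 0 at 8 h, with a median of 0.45, and of the 1079 lower ones 984 (91.2%) were below 0, with a median of -0.36. Over all probe sets 60.7% had the same sign at both times. At 8 h 1501 probe sets (2.75%) passed as higher and 2266 (4.14%) as lower. Of the 16 h calls, 721 higher ones (53.5% of those at 16 h and 48.0% of those at 8 h) and 511 lower ones (47.4% and 22.6%) passed at 8 h too. Of the 189 probe sets at least 2-fold higher at 16 h, 170 passed as higher at 8 h and 97 were at least 2-fold higher there.

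The difference between the 16 h and the 8 h effect passed for 1 probe set of 54675 (0.00183%), while 4857 lay at an unadjusted p under 0.05 in limma. It was WIPF2 231251_at, of a WASP-interacting actin regulator, with a log2 fold change of 0.14 at 16 h and -0.81 at 8 h (difference 0.94, SE 0.12, adjusted p = 0.0438). WIPF2 had 4.57, 4.75 and 4.69 log2 units in GFP-positive cells and 4.52, 4.51 and 4.57 in GFP-negative cells at 16 h, levels that overlapped. CHORDC1 239436_at gave 3.23 at 16 h and 2.00 at 8 h, TOX2 0.14 and -0.89, LIMCH1 0.15 and -0.75, and TERF2 0.27 and -0.69. On the other side, FOXN3 gave 0.24 and 0.99, CNDP2 -0.50 and 0.20, RBM47 -0.35 and 0.29, and COL25A1 -0.30 and 0.36. These 8 differences did not pass. The difference for WIPF2 rests on a small number of arrays: with 1 of the 16 h arrays left out, 0 to 2 probe sets passed, and with the GFP-positive 8 h replicate 3 left out, whose source name gives 16 h, none passed in the same fit.

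**Figure D5:**
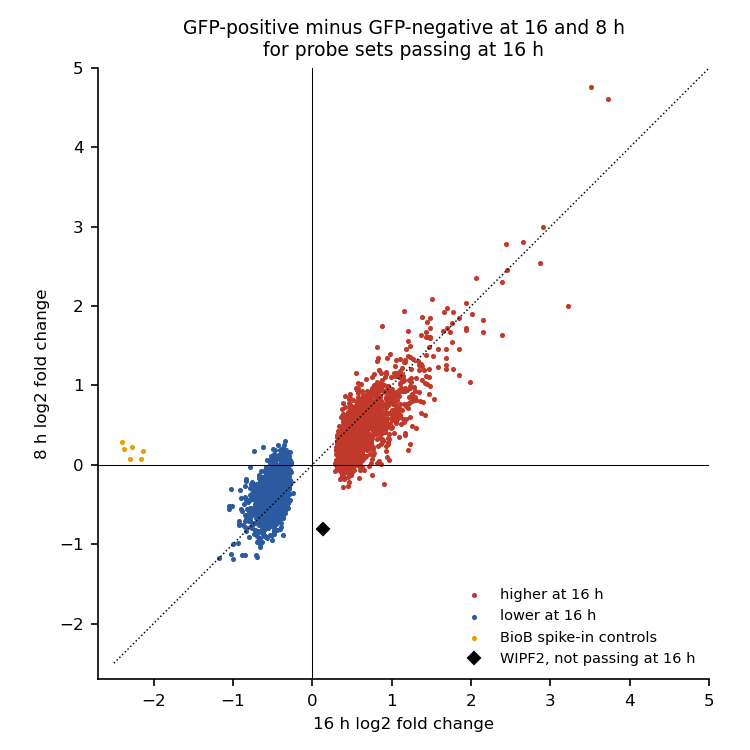
Log2 fold change (GFP-positive minus GFP-negative) at 8 h against that at 16 h for the 2427 probe sets passing at 16 h; the dotted line marks equal change and the black diamond is WIPF2, which did not pass at 16 h. Points fall in the upper right and lower left, except 50 higher and 89 other lower probe sets that did not keep their sign and the BioB controls, which were at about -2 at 16 h and near 0 at 8 h.

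The authors' deposited table for 16 h gives the same group means as the arrays for all 54675 probe sets (tolerance 1e-06) and a posterior probability from a model that is not named. A posterior over 0.95 was given by the authors' deposited table to 908 probe sets, and 862 of these were among the 2427 that passed here. The median posterior in the authors' deposited table over those 2427 was 0.882.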

How the data were processed

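Biotin-labelled cRNA, made from 15 ug of Trizol- and column-purified RNA per the labels' protocols, was hybridized to Affymetrix arrays. The deposited values are log2 expression from RMA in R 2.11.1, per the submitters' processing notes, and array medians lie apart by time, so each time appears to have been normalized apart. The authors' deposited 16 h table also holds a posterior probability, a score from 0 to 1, and a fold ratio; its method is not given in the sources used here. Symbols came from that table, updated through RefSeq: 41717 of 54675 probe sets had exactly 1 symbol and 12958 none, and 64 symbols that had become dates were recovered. The brightest probe set of a gene has the highest mean over the 6 arrays of 16 h. The value given for a gene is not always from its brightest probe set.

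Group means of 17 arrays (2, 8 and 16 h) in 6 groups were estimated by lmFit and eBayes of limma 3.58.1 (R 4.3.3, two-sided), with no filter on low values, and p-values were adjusted over all probe sets or pairs. All adjusted p-values, standard errors and counts at an unadjusted p come from that limma fit. An exact permutation test of 3 arrays against 3 could not go below 0.10. On simulated data with 200 of 54675 probe sets changed, a log2 change of 0.5 was recovered in 45.0% and a log2 change of 1 in 94.0% for the 16 h comparison, with 7 unchanged probe sets called. The simulated noise was independent between arrays, and fewer probe sets were changed than the 2427 that passed. These shares therefore need not hold for the data.

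The comparison, the gene lists and the tests were chosen with earlier results of these data known. Genes were named by rule: the 10 largest rises and the 10 largest declines that passed without overlap, up to 4 passing genes per list, 24 fixed genes, 2 probe sets without a symbol in each direction, the 8 genes with the largest difference between probe sets, 5 genes in each direction for the difference between times, and 4 in each direction with 2 or more passing probe sets. Other list members that passed were named after their values were seen. Some genes that the rule names are not reported here. Motif letters were searched in 27305 RefSeq promoters. Alternatives were other sets of arrays, each array left out, a replicate block, other scalings, a filter on dim probe sets (40% left out), array weights and a trended robust eBayes.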

Additional observations from a re-analysis of the deposited data

Results flagged for a closer look

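WIPF2 231251_at was the probe set whose effect differed between times by a test of the difference itself. The 16 h log2 fold change minus the 8 h log2 fold change was 0.94 (SE 0.12, adjusted p = 0.0438 in limma over all probe sets), with 0.14 at 16 h and -0.81 at 8 h. Groups of 3 arrays were too small for a check of single outlying arrays.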

How the results depend on the processing

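The number of probe sets passing at 16 h was 2427. It was 684 with the 16 h arrays alone, 33 with the 24 h arrays added (all 23 arrays) and 1182 to 2402 with 1 of the 16 h arrays left out. Quantile normalization gave 2486, median centring 2440, array weights 2361, a trended robust eBayes 2400, the filter 2723 and the fit without GFP-positive 8 h replicate 3 gave 2355. With the replicate number as a block 3682 passed (1848 higher and 1834 lower, 2279 of them among the 2427). Same-numbered arrays of 16 h deviated together with correlations of 0.317, 0.091 and 0.443, and 1 of these is under 0.1, so the numbers were not taken to pair the arrays; each array correlated best with its own number except GFP-negative replicate 2. At 8 h the correlations were 0.259, 0.240 and 0.325, and each array correlated best with its own number. With the block the ATF4 list had 18 higher probe sets against 12, the unfolded protein response list 2 against 0 and the cholesterol list 9 lower ones against 5. For pairs of probe sets, 797 passed; it was 315 with the 16 h arrays alone, 0 with all 23 arrays and 354 to 821 with 1 array left out. For the difference between times 1 probe set passed; 7 did with the 8 and 16 h arrays alone, 0 with all 23 arrays, without GFP-positive 8 h replicate 3, with the replicate block, with array weights and with the trended robust eBayes, and 0 to 2 with 1 array left out. The cause was not tested. With all 23 arrays the stress response, heat shock and G1/S lists had 0 higher probe sets and the G2 and mitosis list 5 lower ones.

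Of 174 named probe sets, 130 passed and 79 of these passed without each array in turn; 0 of the 130 changed sign in any alternative run. Probe sets that did not pass changed sign as follows. BUB1 216275_at gave 0.032 under quantile normalization and 0.032 under median centring, and MKI67 212021_s_at 0.014 under median centring. With 1 array left out, log2 fold changes spanned zero for ATF3 1554420_at (-0.071 to 0.231), PGAP1 220576_at (-0.310 to 0.016), TPH1 1553859_at (-0.014 to 0.115), BUB1 216275_at (-0.210 to 0.111), BUB1 216277_at (-0.091 to 0.137) and BUB1 215508_at (-0.312 to 0.020). The same held for DNAI4 1559576_at (-0.130 to 0.026), MKI67 212021_s_at (-0.156 to 0.046), CFAP43 220919_s_at (-0.077 to 0.175), FAHD2A 235418_at (-0.0090 to 0.186), JUN 213281_at (-0.013 to 0.164), JUN 201465_s_at (-0.0024 to 0.253), CXCL8 202859_x_at (-0.134 to 0.031) and CHORDC1 218566_s_at (-0.0056 to 0.214). In the dimmest quartile of levels the signal lies near background, which limits what these arrays can show there.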
